A study of Mus musculus with 4 samples.

Results

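Tight junctions seal the space between neighbouring epithelial cells. Claudins form their strands and set which ions pass, occludin and the other MARVEL proteins sit beside them, and plaque proteins such as ZO-1 and cingulin tie the strands to actin. The Par and Crumbs complexes mark the apical side of the cell, the Scribble group marks the basolateral side, and ezrin with NHERF1 builds the apical cortex. In the prostate, luminal cells line the duct and carry the apical surface, whereas basal cells lie beneath them on the basement membrane.

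The transcripts of 39 such genes, out of 49671 genes in the table, were compared between basal and luminal cells of the developing mouse prostate. The members are 16 claudins, 3 MARVEL proteins (Ocln, Marveld2, Marveld3), 4 plaque scaffolds (Tjp1, Tjp3, Cgn, Cgnl1), 4 immunoglobulin adhesion proteins (F11r, Jam2, Jam3, Cxadr), 6 genes of the apical complexes (Crb3, Pard3, Pard6a, Pard6b, Prkci, Mpp5), 3 of the basolateral group (Llgl2, Scrib, Dlg1), 2 apical cortex linkers (Ezr, Slc9a3r1) and Epcam. The rule lists them by name.

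RNA was sequenced from 2 basal libraries (replicates 1 and 3) and 2 luminal libraries (replicates 3 and 2), all from untreated CD-1 mice that the labels place at postnatal days 10 to 13. Epithelial cells with high EpCAM were sorted from the tips of the ventral lobe as basal (high CD49f) or luminal (low CD49f) after cells carrying CD45, CD31 or CD140a had been removed. Tissue from several mice was used, and the sources used here do not say which mice went into which library, so the p-values measure the spread between these libraries, which may be technical. EpCAM protein was required in both gates, and CD49f, the product of Itga6, divided them.

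The values are read counts per gene that the authors scaled to a common total, here called normalized values, and they summed to between 19998940 and 20071189 per library. From the spacing of low values, basal replicate 1 held 3194307 reads and basal replicate 3 held 3079275, but luminal replicate 3 held 1036685 and luminal replicate 2 held 643267. Each count of 3 reads was therefore worth 18.8 and 19.5 normalized units in the basal libraries, and 58.1 and 93.5 in the luminal libraries. Both luminal libraries were shallower than both basal ones, so depth and cell type cannot be told apart, and in bulk RNA fewer cells of a type and less RNA per cell cannot be told apart either. Nuclear protein-coding genes held 76.0% and 74.7% of the basal totals but 57.3% and 64.2% of the luminal totals, and the part of this difference in the results was not tested beyond the rescaling to these genes given with the other settings. Krt5, Krt14, Trp63 and Itga6 were higher in both basal libraries (Krt5 at 18481 and 15824 against 77 and 93), and Krt8 and Krt18 were higher in both luminal libraries (Krt8 at 13302 and 8320 against 3012 and 4287). Fibroblast genes were present throughout: the 7 markers summed to 100654, 207389, 71311 and 197198. Wherever 4 values stand together, here and below, basal replicate 1 comes first, then basal replicate 3, luminal replicate 3 and luminal replicate 2. Pdgfra, which encodes the CD140a used for exclusion, stood at 3307, 4144, 2575 and 8383. Of the other excluded cells, Pecam1 stood at 833, 637, 174 and 499, Cdh5 at 257, 247, 0 and 249, and Ptprc at 150, 6, 0 and 0. The 9 endothelial markers summed to between 678 and 2025. The 8 immune markers summed to 3525, 1753, 833 and 2149, with C1qa and C1qb at 0 outside basal replicate 1.

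A gene was tested when both libraries of at least 1 group were at 10 or more and averaged 20 or more, and 32 of the 39 members met this, as did 18737 genes in all. Cldn9 was at 0 in all 4 libraries. The other members left out were Cldn2, Cldn5, Cldn6, Cldn15, Cldn18 and Cldn19. Their highest value in a library was 117, for Cldn15 in basal replicate 3, which stood at 6 in basal replicate 1 and at 0 in both luminal libraries. With a floor of 3 reads, low levels of these genes were not detectable in the luminal libraries at this depth.

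Luminal cells held more transcript of many members. The ratio of the group averages was at least 2 in favour of luminal cells for 16 of the 32 tested members, against 18.3% of all tested genes, and at least 2 in favour of basal cells for 2 members, Cldn1 and Pard3, against 16.3% of all tested genes. Of the 32, 18 had both luminal libraries above both basal libraries and 5 the reverse, where the shares over all tested genes were 23.6% and 27.3%. The median log2 fold change of the members was 0.97, luminal over basal, and that of all tested genes was -0.10. Crb3 was tested only through its luminal values, and when every library and both groups had to pass the filter, 15 of 31 members favoured luminal cells by the ratio (12.4% of all 14953 such genes) and 2 basal cells (12.0%), with a median of 0.69 against -0.083. With limma on log2 of the normalized value plus 1 and Benjamini-Hochberg adjustment over all tested genes, 3 members rose in luminal cells (Cldn3, Cgn and Ezr; background 0.256%) and 1 fell (Cldn1; background 0.438%). Each of these 4 lost its call when any of the 4 libraries was left out, with limma adjusted p between 0.0571 and 0.240. The edgeR quasi-likelihood test on recovered reads called 10 members higher in luminal cells, where it called 2.36% of all tested genes, and 2 higher in basal cells, where it called 2.72%. DESeq2 called the same 10 and 2 members, against 2.15% and 2.22% of all tested genes.

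**Figure D1:**
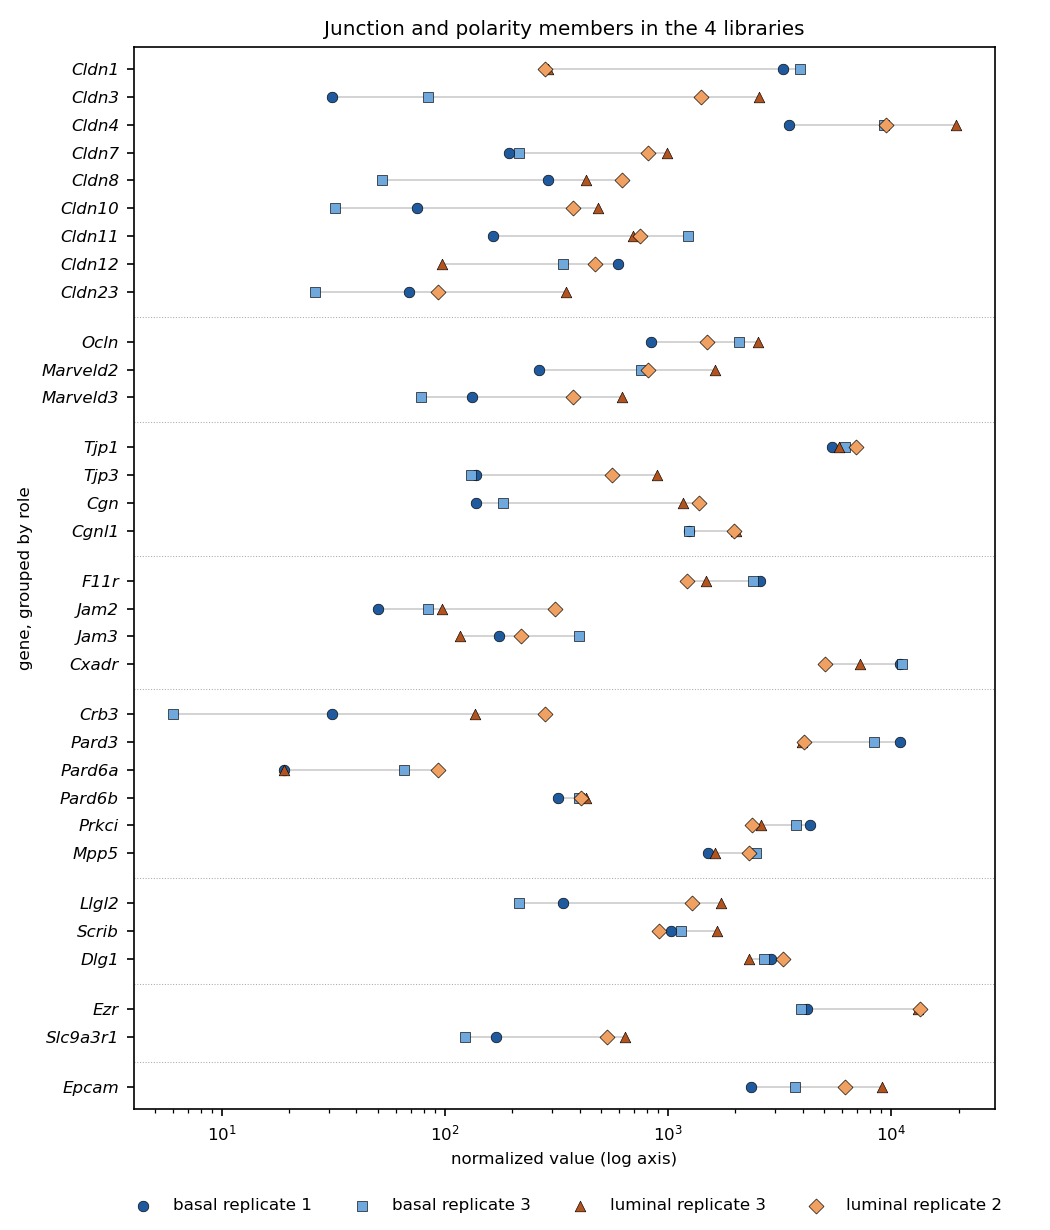
Normalized value (horizontal log axis) of each of the 32 tested members in the 4 libraries, from top to bottom claudins, MARVEL proteins, plaque scaffolds, immunoglobulin adhesion proteins, apical complexes, basolateral group, apical cortex linkers and Epcam. Circles and squares are the basal libraries and triangles and diamonds the luminal ones; for 18 members both luminal points lie to the right of both basal points, and for 5 to the left.

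Among the claudins, the level of Cldn1 and the level of Cldn3 went in opposite directions. Cldn1, a sealing claudin needed for the skin barrier, lies on chromosome 16 (GRCm38, 26356642 to 26371841, minus strand). Its normalized value was 3282 and 3884 in the basal libraries and 290 and 280 in the luminal libraries. The basal libraries were close to each other and far above both luminal libraries, which rested on 15 and 9 reads. The ratio of the averages was 12.6 in favour of basal cells, and the limma log2 fold change was -3.64 (SE 0.26, adjusted p = 0.0247).

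Cldn3, a barrier-forming claudin of many simple epithelia, lies on chromosome 5 (134986214 to 134987472, plus strand). Its normalized value was 31 and 84 in the basal libraries and 2556 and 1402 in the luminal libraries. The lower luminal library still held many times the value of the higher basal library, although the basal values rested on 5 and 13 reads. The ratio of the averages was 34.4 in favour of luminal cells. It was 63.8 without basal replicate 3, 23.6 without basal replicate 1 and 24.4 without luminal replicate 3. The limma log2 fold change was 5.18 (SE 0.64, adjusted p = 0.0481). An antisense gene, Wbscr25, overlaps Cldn3 exons by 40 bases and stood at 6, 6, 252 and 405. The use of strand in counting is not given in the sources used here, and its part in the Cldn3 value was not tested.

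Cldn4 lies 39279 bases from Cldn3 on chromosome 5, on the opposite strand, with 0 coding genes between them. It encodes a claudin known for limiting sodium passage. Its normalized value was 3476 and 9295 in the basal libraries and 19420 and 9411 in the luminal libraries. Basal replicate 3 and luminal replicate 2 nearly met, and the whole difference lay in the other library of each group. The ratio of the averages was 2.26 in favour of luminal cells, and the limma log2 fold change of 1.25 (SE 0.57, adjusted p = 0.323) did not pass. Leaving out basal replicate 1 gave a ratio of 1.55, leaving out luminal replicate 3 gave 1.47 and leaving out basal replicate 3 gave 4.15.

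The neighbours Cldn3 and Cldn4 thus differed in how far they separated the cell types. The 250 bases before the start of each, and before Cldn1, which went the other way, are shown with the letters of 4 motifs in capitals. The sequences are from RefSeq on GRCm38.p6, each read 5′ to 3′ on the strand of its gene. The motifs, searched on both strands, were GGGCGG (GC box), TGANTCA (AP-1), CAGGTG (the E-box bound by SNAI and ZEB factors) and AACCNGTT (GRHL factors).
Cldn3, chr5:134985964-134986213, plus strand: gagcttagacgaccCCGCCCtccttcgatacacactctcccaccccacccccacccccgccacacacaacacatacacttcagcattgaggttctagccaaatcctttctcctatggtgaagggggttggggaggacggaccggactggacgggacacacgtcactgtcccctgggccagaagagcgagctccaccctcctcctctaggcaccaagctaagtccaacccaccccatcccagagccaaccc
Cldn4, chr5:134946935-134947184, minus strand: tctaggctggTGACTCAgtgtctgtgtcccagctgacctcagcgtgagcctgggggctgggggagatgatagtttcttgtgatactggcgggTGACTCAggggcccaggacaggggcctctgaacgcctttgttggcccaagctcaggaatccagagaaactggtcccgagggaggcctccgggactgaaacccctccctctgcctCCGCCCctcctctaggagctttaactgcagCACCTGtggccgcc
Cldn1, chr16:26371840-26372089, minus strand: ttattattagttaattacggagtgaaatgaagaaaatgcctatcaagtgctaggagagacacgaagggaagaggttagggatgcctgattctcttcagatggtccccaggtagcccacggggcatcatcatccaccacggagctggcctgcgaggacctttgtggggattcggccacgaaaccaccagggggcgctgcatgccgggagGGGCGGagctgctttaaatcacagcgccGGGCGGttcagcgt

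A promoter entry was found for 29 of the 39 members, with 44 windows in all since some genes have several starts. The GC box was present in 32 of the 44 member windows (72.7%) and in 32.7% of 32851 promoter windows of the same length. The Cldn4 window held 2 AP-1 matches, 1 E-box and 1 GC box, the Cldn1 window 2 GC boxes and the Cldn3 window 1 GC box. AP-1 letters were found in 4 of the 44 member windows (9.09%; Cldn4, Cldn15, Ezr and F11r) and in 6.75% of all windows, and the E-box in 12 of them (27.3%) and in 17.2% of all windows. These matches describe letters in a window, and whether a factor binds there was not tested.

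Cldn7, which is found along the lateral membrane as well as in tight junctions, had normalized values of 194 and 214 in the basal libraries and 987 and 810 in the luminal libraries. The groups did not overlap, and both pairs were narrow. The ratio was 4.40 in favour of luminal cells (limma log2 fold change 2.13, SE 0.35, adjusted p = 0.0665), which edgeR called (adjusted p = 0.0103). Cldn10, a claudin that forms ion pores, stood at 75 and 32 in basal and 484 and 374 in luminal cells. The groups did not overlap, with a ratio of 8.02 that was 13.4 without basal replicate 1 and 5.72 without basal replicate 3. The limma log2 fold change was 3.09 (SE 0.69, adjusted p = 0.0835), and edgeR called Cldn10 (adjusted p = 0.0225).

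Cldn8, a barrier claudin of the distal kidney tubule, was at 288 and 52 in basal and 426 and 623 in luminal cells. The basal libraries differed from each other more than the luminal ones did, and the limma log2 fold change of 2.06 (SE 0.88, adjusted p = 0.294) did not pass. Cldn23 was at 69 and 26 in basal and 349 and 93 in luminal cells, and the lowest luminal value rested on 3 reads. Its groups did not overlap, and the limma log2 fold change was 2.06 (SE 1.01, adjusted p = 0.353). The ratio of Cldn8 was 3.09, and it was 10.1 without basal replicate 1 and 1.82 without basal replicate 3. The ratio of Cldn23 was 4.65, and it was 8.50 without basal replicate 1, 7.35 without luminal replicate 2 and 1.96 without luminal replicate 3.

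Both remaining tested claudins had groups that overlapped. Cldn11, the claudin of myelin and Sertoli cells, ranged from 163 to 1228, with both ends in basal libraries. It was among 7 tested members (with Cgn, Jam2, Jam3, Mpp5, Pard6a and Tjp1) that were higher in basal replicate 3 than 1 and in luminal replicate 2 than 3, the order also seen in the marker sums of fibroblasts, smooth muscle (30687, 53240, 9984 and 61015) and glia (550, 987, 77 and 124). Another 8 members had the opposite order in both groups. The share of each order over all tested genes was not counted, so these counts are not read as a result about the members. The part of RNA from fibroblasts, smooth muscle and glia in the values was not tested. Cldn12 ranged from 97 to 595, and its lowest value was 5 reads in luminal replicate 3.

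The summed level of the 16 claudins, in normalized value per kb of exon, was 3181 and 6946 in the basal libraries and 14261 and 7757 in the luminal libraries. The group averages were 5064 ± 2662 and 11009 ± 4599 (SD, n = 2 each), so the sums did not overlap but the spread within a group was wide. Cldn4 made up most of this sum in every library, at 60.2% and 73.7% in basal and 75.0% and 66.8% in luminal cells, and the ranges of its share overlapped. Cldn1 took 21.3% and 11.6% of the basal sum and 0.420% and 0.746% of the luminal sum. Cldn3 took 0.774% and 0.961% of the basal sum and 14.2% and 14.4% of the luminal sum. After Cldn4, the next highest share went to Cldn1 in both basal libraries and to Cldn3 in both luminal libraries. The 3 highest claudins together held between 85.9% and 94.7% of the sum in a library.

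**Figure D2:**
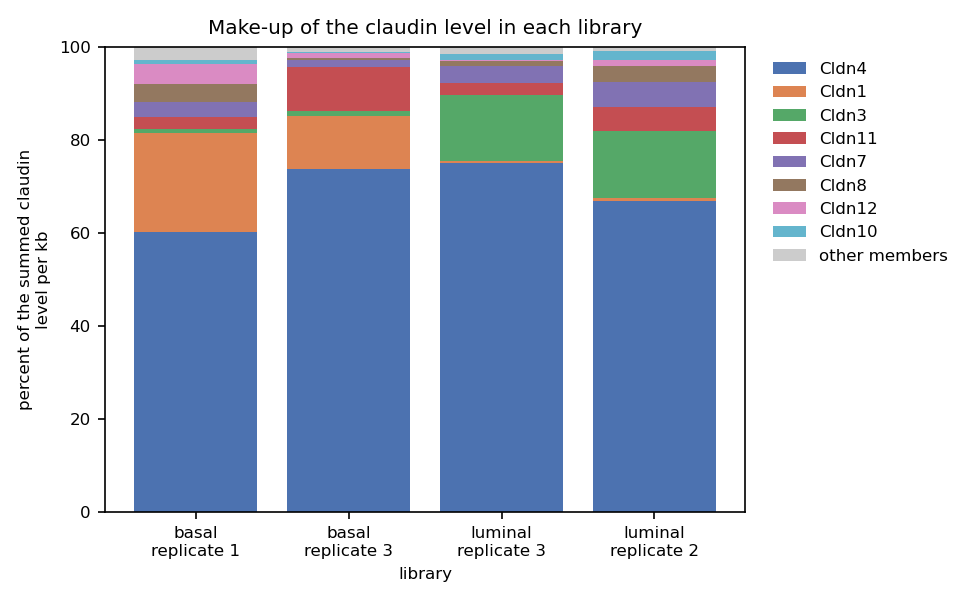
Share of the summed claudin level per kb (vertical axis, percent) held by 8 claudins and by the other members in each of the 4 libraries. Cldn4 takes between 60.2% and 75.0% of each bar, Cldn1 (orange) is broad only in the basal bars and Cldn3 (green) only in the luminal bars.

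The MARVEL proteins sit in the junction next to the claudins, and tricellulin (Marveld2) gathers where 3 cells meet. Marveld3 stood at 132 and 78 in basal and 620 and 374 in luminal cells, with no overlap and a ratio of 4.73. Its limma log2 fold change was 2.24 (SE 0.57, adjusted p = 0.108), and edgeR called it (adjusted p = 0.0403). Marveld2 stood at 263 and 754 in basal and 1626 and 810 in luminal cells. As for Cldn4, basal replicate 3 and luminal replicate 2 nearly met, and the limma log2 fold change was 1.36 (SE 0.62, adjusted p = 0.319). The ratio of 2.40 became 1.62 when basal replicate 1 was left out, 1.59 when luminal replicate 3 was, and 4.63 when basal replicate 3 was. Occludin (Ocln), which lies 43238 bases from Marveld2 on chromosome 13, ranged from 839 to 2536 and its groups overlapped.

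Among the plaque scaffolds, cingulin was the gene that passed the test. Cgn, which links the junction to the cytoskeleton, lies on chromosome 3 (94760069 to 94786492, minus strand). Its normalized value was 138 and 182 in the basal libraries and 1162 and 1371 in the luminal libraries. The basal and luminal pairs were each narrow and did not overlap. The ratio was 7.92 in favour of luminal cells, and the limma log2 fold change was 2.99 (SE 0.36, adjusted p = 0.0481). Of the 50-base stretches of its exons, 17.2% also occur in other transcripts, most of them in the pseudogene BC021767, which stood at 19, 0, 174 and 93. How reads of these stretches were counted is not given in the sources used here, so the Cgn value is uncertain to that extent.

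AACCNGTT was found in 2 of the 44 member windows (4.55%), those of Cgn and Cldn5, and in 1.79% of all windows. Its 250 upstream bases (RefSeq, GRCm38.p6) are shown because the gene changed and its window also holds 6 GC boxes; the match to AACCNGTT begins 29 bases before the start.
Cgn, chr3:94786483-94786732, minus strand: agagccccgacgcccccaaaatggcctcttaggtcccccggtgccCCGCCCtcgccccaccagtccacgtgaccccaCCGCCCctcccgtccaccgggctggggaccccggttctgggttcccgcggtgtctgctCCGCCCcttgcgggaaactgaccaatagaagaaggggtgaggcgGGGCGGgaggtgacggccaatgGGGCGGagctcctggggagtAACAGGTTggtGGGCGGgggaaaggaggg

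Tjp3, which encodes the scaffold ZO-3, stood at 138 and 130 in basal and 891 and 561 in luminal cells. The groups did not overlap, with a ratio of 5.42 (limma log2 fold change 2.39, SE 0.45, adjusted p = 0.0688), and edgeR called it (adjusted p = 0.0108). Tjp1, which encodes ZO-1, ranged from 5405 to 6949 and its groups overlapped, with a limma log2 fold change of 0.13 (SE 0.22). Cgnl1 (paracingulin) ranged from 1234 to 2014, with both luminal libraries above both basal ones and a ratio of 1.61. Within the scaffolds, Cgn and Tjp3 thus had larger ratios than Tjp1 and Cgnl1.

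Of the 4 immunoglobulin adhesion proteins, Cxadr and F11r were higher in both basal libraries and Jam2 in both luminal libraries. Cxadr, the coxsackie and adenovirus receptor, stood at 10978 and 11173 in basal and 7222 and 5048 in luminal cells. Both basal libraries were higher, with a ratio of 1.81 in favour of basal cells, and the limma log2 fold change was -0.88 (SE 0.26, adjusted p = 0.157). Its exons overlap those of Btg3 on the other strand by 9.39%, and Btg3 stood at 664, 578, 349 and 343. F11r (JAM-A) stood at 2568 and 2403 in basal and 1472 and 1215 in luminal cells, again without overlap, with a limma log2 fold change of -0.89 (SE 0.24, adjusted p = 0.123).

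Jam2, an adhesion protein of endothelium and other cells, stood at 50 and 84 in basal and 97 and 312 in luminal cells. Luminal replicate 2 was the highest, but the 4 values rested on only 8, 13, 5 and 10 reads. The limma log2 fold change was 1.41 (SE 0.87, adjusted p = 0.441). The ratio of 3.05 was 1.45 without luminal replicate 2 and 4.66 without luminal replicate 3. The endothelial markers summed to 1749, 1714, 678 and 2025, and the part of endothelial RNA in the Jam2 value was not tested. Jam3 ranged from 116 to 396 with overlapping groups, and 36.2% of its exon bases overlap an antisense gene, so its value is uncertain.

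The averages of the 6 apical complex members did not all favour the same cell type, and only Pard3 was called, by edgeR and DESeq2. Pard3, the scaffold of the Par complex, stood at 10978 and 8386 in basal and 3989 and 4051 in luminal cells. The luminal values were close to each other, the basal values less so, and the groups did not overlap. The ratio was 2.41 in favour of basal cells (limma log2 fold change -1.25, SE 0.23, adjusted p = 0.0688), and edgeR called it (adjusted p = 0.0277). Crb3, the epithelial Crumbs protein, stood at 31 and 6 in basal and 136 and 280 in luminal cells. No library held more than 9 reads of Crb3, and the limma log2 fold change of 3.71 (SE 1.12, adjusted p = 0.166) carried a wide error. The ratio of 11.2 was 34.7 without basal replicate 1, 6.71 without basal replicate 3 and 7.35 without luminal replicate 2.

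The other 4 apical members had smaller ratios. Prkci, the atypical protein kinase C of the Par complex, ranged from 2368 to 4315 and was higher in both basal libraries, with a limma log2 fold change of -0.69 (SE 0.22, adjusted p = 0.188). Pard6b ranged from 319 to 426, and Mpp5 (PALS1, the Crumbs scaffold) from 1509 to 2475 with overlapping groups. Pard6a rested on 1 to 10 reads per library, too few to compare.

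On the basolateral side, Llgl2, which opposes the Par complex, stood at 338 and 214 in basal and 1723 and 1278 in luminal cells. The groups were well apart, with a ratio of 5.44 in favour of luminal cells (limma log2 fold change 2.46, SE 0.38, adjusted p = 0.0649), and edgeR called it (adjusted p = 0.00321). Its partners in this group had fitted changes near 0. Scrib ranged from 904 to 1646 and Dlg1 from 2304 to 3272, each with overlapping groups, and the sign of the Dlg1 change depended on the scaling.

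The apical cortex linkers were higher in luminal cells. Ezr (chromosome 17, 6738041 to 6782784, minus strand) encodes ezrin, which ties the apical membrane to actin. Its normalized value was 4177 and 3930 in the basal libraries and 13128 and 13431 in the luminal libraries. Both pairs agreed closely, with a ratio of 3.28 in favour of luminal cells, and the limma log2 fold change was 1.71 (SE 0.20, adjusted p = 0.0469). Slc9a3r1, which encodes its partner NHERF1, stood at 169 and 123 in basal and 639 and 530 in luminal cells. The groups did not overlap, with a ratio of 4.003 (limma log2 fold change 2.01, SE 0.44, adjusted p = 0.0782), and edgeR called it (adjusted p = 0.0350).

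Epcam, whose product binds claudin-7 and was used to sort both cell types, stood at 2355 and 3683 in basal and 9081 and 6170 in luminal cells. Both luminal libraries were higher, with a ratio of 2.53 (limma log2 fold change 1.35, SE 0.33, adjusted p = 0.0985), and edgeR called it (adjusted p = 0.0456).

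**Figure D3:**
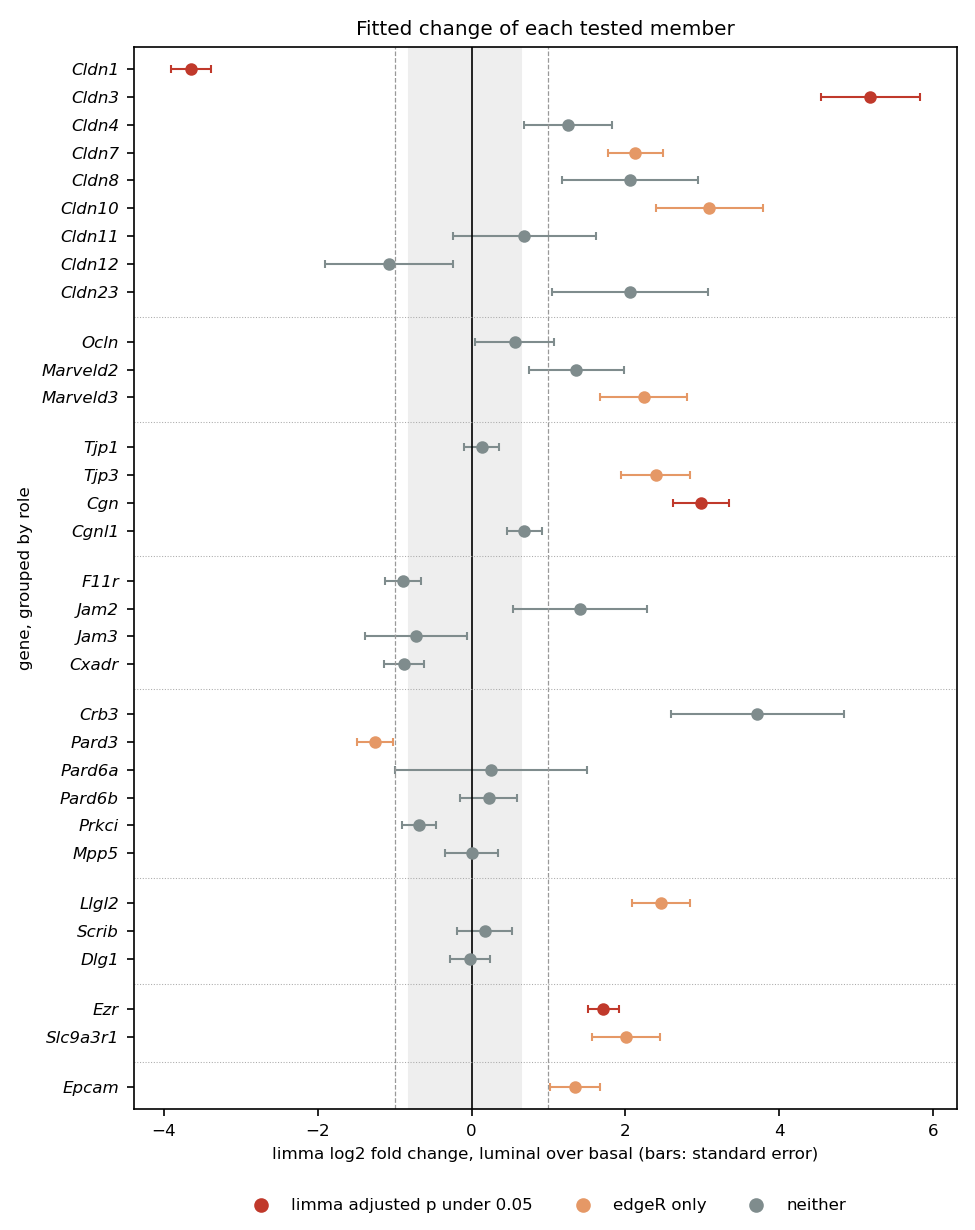
limma log2 fold change, luminal over basal (horizontal axis), of the 32 tested members with bars of 1 standard error, in the same order of roles. The grey band runs from the lower to the upper quartile of all tested genes and the dashed lines mark a 2-fold difference; red points passed limma, orange points passed edgeR only and grey points neither, and the only red point left of 0 is Cldn1.

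In basal cells the 5 highest members by average level per kb of exon were Cldn4 (3516), Cxadr (1497), Epcam (1375), Ezr (1232) and F11r (933). In luminal cells they were Cldn4 (7938), Ezr (4036), Epcam (3474), Cldn3 (1572) and Cxadr (829). In basal cells the levels per kb of Epcam (1073 and 1678) overlapped those of Cxadr (1484 and 1510) and Ezr (1270 and 1195), while both Cxadr values lay above both Ezr values. In luminal cells those of Ezr (3990 and 4082) fell within the range of those of Epcam (4137 and 2811), and those of Cxadr (976 and 682) overlapped those of Tjp1 (744 and 890), which came next. Cldn4 ranked 223 among the 18737 tested genes in basal cells and 105 in luminal cells.

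Ratios between related genes within a library hardly depend on how the libraries were scaled, and 8 pairs were compared as log2 of the ratio of levels per kb, each plus 1. Cldn7 over Cldn1 was -2.75 and -2.86 in basal and 3.06 and 2.82 in luminal libraries, so the more abundant gene of the pair changed. Cldn4 over Cldn3 was 6.22 and 6.24 in basal and 2.40 and 2.22 in luminal libraries. Both pairs of values were tight, and Cldn4 stayed the more abundant gene throughout.

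Cgn over Cgnl1 was -2.73 and -2.34 in basal and -0.41 and -0.14 in luminal libraries. Tjp3 over Tjp1 was -4.18 and -4.47 in basal and -1.63 and -2.55 in luminal libraries. In these pairs Cgnl1 and Tjp1 remained the more abundant genes in all 4 libraries, by less in luminal cells. Marveld2 over Ocln was -1.34 and -1.14 in basal and -0.32 and -0.56 in luminal libraries, a smaller difference without overlap. The ratios F11r over Jam3, Pard6b over Pard6a and Slc9a3r1 over Ezr overlapped between the groups. The 5 pairs without overlap each had an exact permutation p of 0.333 (two-sided), the smallest that 2 libraries against 2 allow, so no pair can pass a threshold of 0.05, and adjustment over the 8 pairs cannot lower it.

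**Figure D4:**
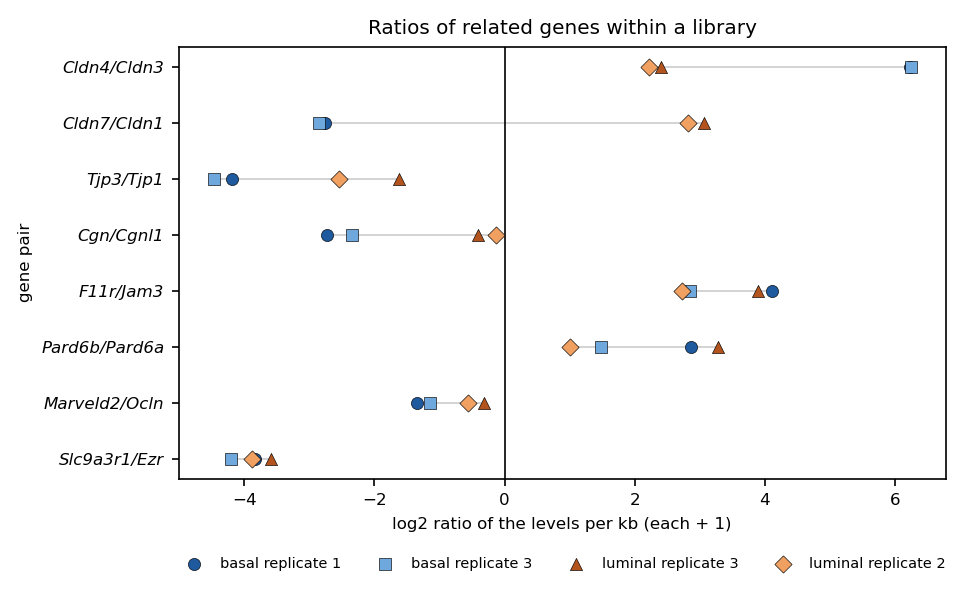
log2 ratio of the levels per kb (horizontal axis) for 8 pairs of related genes in each of the 4 libraries, basal as circles and squares and luminal as triangles and diamonds. Cldn7/Cldn1 crosses 0 between the cell types, from -2.75 and -2.86 to 3.06 and 2.82, and F11r/Jam3, Pard6b/Pard6a and Slc9a3r1/Ezr overlap.

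Other genes of the same structures were counted as a wider list of 83 genes, of which 81 were in the table and 68 were tested. The ratio favoured luminal cells by at least 2 for 20 of the 68 (29.4%, against 18.3% of all tested genes) and basal cells for 6 (8.82%, against 16.3%), and the median log2 fold change was 0.24. Of the 20, 6 were tested only through their luminal values (Cldn20, Crb1, Lin7b, Lrrc7, Muc1 and Rab17), and of the 6, Cldn24 only through its basal ones. When every library and both groups had to pass the filter, 14 of 59 (23.7%, against 12.4% of all such genes) favoured luminal cells and 5 (8.47%, against 12.0%) basal cells, with a median of 0.21. limma called 1 gene higher in luminal cells and 0 higher in basal cells, with 11 (16.2%) and 9 (13.2%) at an unadjusted p under 0.05, where the shares over all tested genes were 7.82% and 10.7%. edgeR called 8 (11.8%) and 3 (4.41%), against 2.36% and 2.72% of all tested genes, and DESeq2 called 7 and 2, against 2.15% and 2.22%.

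The gene called by limma was Myo5b, the motor that carries recycling endosomes to the apical membrane. It stood at 257 and 182 in basal and 1975 and 1527 in luminal cells, with a ratio of 7.98 (limma log2 fold change 3.00, SE 0.35, adjusted p = 0.0464). It lost the limma call without basal replicate 1 or basal replicate 3. Rab25, a small GTPase of recycling endosomes, stood at 125 and 71 against 368 and 312, whereas its relative Rab11a, also a partner of Myo5b, stood at 1046 and 987 against 910 and 1091. Pdzk1, a scaffold related to NHERF1, stood at 132 and 117 against 678 and 436. The value of Pdzk1 is uncertain, since 37.5% of its exon bases overlap Gpr89 on the other strand. Espn, Mal and Slc9a3r2 were also past the ratio in favour of luminal cells, at 2.51, 2.31 and 6.33, and the value of Slc9a3r2 lay off the spacing of its library and is uncertain. Without luminal replicate 2 the ratio of Espn was 1.93. Without basal replicate 1 that of Mal was 1.64 and that of Slc9a3r2 12.4, and without basal replicate 3 they were 3.89 and 4.25. The other ezrin family member past the ratio, Msn (moesin), went the other way, at 2574 and 2118 in basal and 542 and 1184 in luminal cells, and Podxl (podocalyxin) stood at 576 and 539 against 271 and 31. The ratio of Msn, 2.72 in favour of basal cells, was 1.98 without luminal replicate 3 and 4.33 without luminal replicate 2, and that of Podxl, 3.69, was 18.0 and 2.06 in the same order. The Podxl value of 31 in luminal replicate 2 is 1 read, below the floor of 3 reads, and the ratio of 18.0 rests on it.

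Among the scaffold and adhesion genes, Igsf5 (JAM4) stood at 31 and 97 in basal and 929 and 841 in luminal cells, a ratio of 13.8 (28.5 without basal replicate 3 and 9.12 without basal replicate 1), although its exons are shared in part with a second annotated copy. The membrane protease St14 (matriptase) and its inhibitor Spint1 had ratios of 3.02 and 3.94 in favour of luminal cells, and edgeR called both (adjusted p = 0.0252 and 0.0114). Ildr1, a protein of tricellular junctions, had a ratio of 3.09. Amotl1, an angiomotin relative that binds junction scaffolds, was higher in basal cells, at 8442 and 6691 against 1936 and 2462 (edgeR adjusted p = 0.00447). Marveld1 was also higher there, at 777 and 818 against 116 and 343. Its ratio of 3.47 was 6.88 without luminal replicate 2 and 2.33 without luminal replicate 3.

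Of the polarity genes, Pard6g stood at 996 and 786 in basal and 155 and 125 in luminal cells, a ratio of 6.36 in favour of basal cells that edgeR called (adjusted p = 0.00686). With Pard6b at like levels in both cell types, Pard6b over Pard6g (log2 of levels per kb) was -1.74 and -1.09 in basal and 1.33 and 1.56 in luminal libraries, a pair chosen after the values were seen and given without a test. Pard3b, the paralogue of Pard3, stood at 420 and 643 in basal and 736 and 1714 in luminal cells. Its ratio of 2.30 was below 2 when luminal replicate 2 (1.38) or basal replicate 1 (1.91) was left out. Dlg2 had a ratio of 3.11 on few reads, which was 8.18 without basal replicate 1 and 1.92 without basal replicate 3. Of the regulators, Grhl1, a grainyhead factor of epithelia, stood at 651 and 572 in basal and 2265 and 1870 in luminal cells (limma log2 fold change 1.75, SE 0.26, adjusted p = 0.0637).

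**Figure D5:**
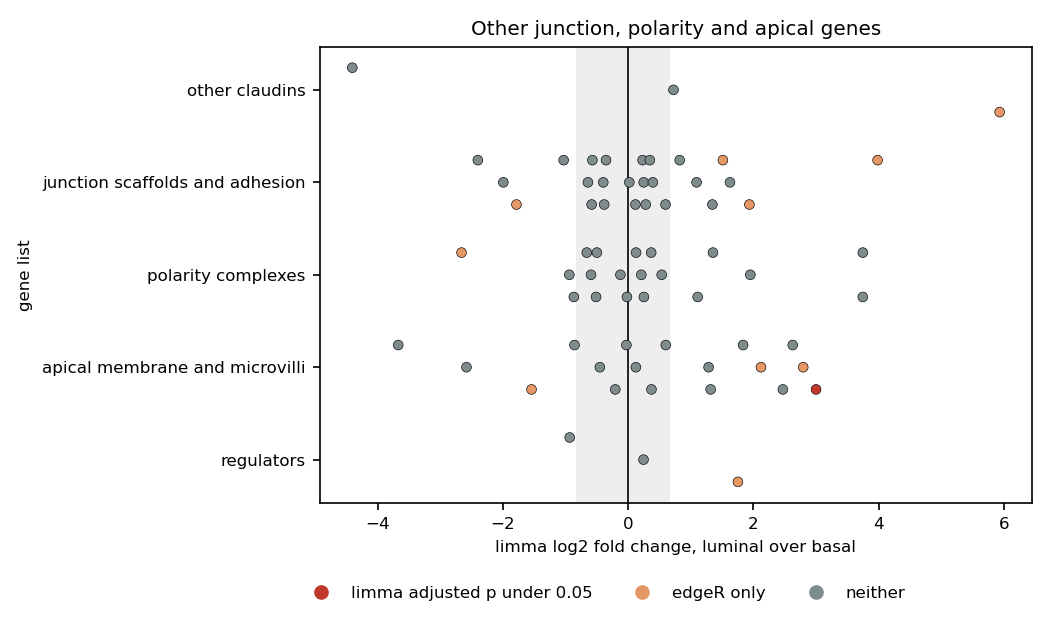
limma log2 fold change, luminal over basal (horizontal axis), of the 68 tested genes of the wider list in 5 groups; vertical offsets only keep points apart. The grey band runs from the lower to the upper quartile of all tested genes, the red point is Myo5b at 3.00 and orange points passed edgeR only.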

How the data were processed

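RNA-seq of sorted basal and luminal prostate tip cells was evaluated in 4 libraries. The submitters' processing notes name STAR, Picard, HTSeq, GRCm38 and mm10, without versions. The authors deposited a signal per gene, a read count scaled to a common total and rounded. All columns were mapped, leaving 0 unmapped. Whether strand was used is not given in the sources used here. Reads were recovered by dividing by the value of 1 read (6.26 and 6.50 for the basal libraries, 19.4 for luminal replicate 3 and 31.2 for luminal replicate 2), with 97.9% to 99.1% of low values (up to 60 reads) within 0.75 of a multiple. Off this spacing were 563 genes, 0 of them members. The spacing of luminal replicate 2 is the least certain. Floors cover counting error only.

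limma 3.58.1 was fitted to log2(value + 1) with a trended prior, without a block, and fold calls used ratios of group averages. Fold changes are on the log2(value + 1) scale, where those of low genes can differ in either direction from the ratio of averages and from edgeR. Recovered reads were also tested with edgeR 4.0.16 (quasi-likelihood, TMM) and with DESeq2 1.42.0. R 4.3.3, Python 3.11.15, numpy 2.4.6, pandas 2.3.3, scipy 1.17.1 and matplotlib 3.10.9 were used. Levels per kb used merged exons of a GRCm38 annotation, which held 49326 of the 49671 identifiers. The statistics were tested on simulated data.

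Members and lists were chosen with earlier results of these data known. Values in every library were given for members with a limma adjusted p under 0.05 or past the ratio with an average of 100 or more, and for the 5 highest members per kb in each group. Other members were given by range. Genes of the wider list were named by the same 2 thresholds, and Krt5, Krt14, Trp63, Itga6, Krt8, Krt18, Pecam1, Cdh5, Pdgfra and Ptprc among markers. Genes overlapping members and comparison genes outside this rule were chosen after their values were seen. A gene of the wider list that met these thresholds is not reported here.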

Additional observations from a re-analysis of the deposited data

How the results depend on the processing

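No paired analysis was possible because the groups share only replicate number 3. The count of members called by limma in luminal cells (3) was 5 with a pseudocount of 10, 0 without the filter, 8 when both groups had to pass the filter, 1 after median-ratio rescaling, and 10 with edgeR or DESeq2. In basal cells (1 called) it was 2, 0, 2, 1, 2 and 2 under the same settings. The shares of all tested genes called under these 6 settings were 1.13%, 0%, 1.80%, 0.219%, 2.36% and 2.15% in luminal cells and 1.70%, 0%, 2.74%, 0.352%, 2.72% and 2.22% in basal cells. Without the filter, 27872 genes were tested, and the cause of the lost calls was not tested. For the wider list (1 and 0 called) the counts in luminal cells were 4, 0, 5, 1, 8 and 7, and in basal cells 2, 0, 2, 0, 3 and 2. Over all 18737 genes limma called 130 and edgeR 952.

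Leaving out 1 library at a time gave 0 called members in luminal cells in each case (0.0317% to 4.01% of all tested genes) and 0 to 1 in basal cells (0.0744% to 3.90%), the 1 being Cldn15 without basal replicate 1, a fit in which the lone basal library is assumed to vary like the luminal ones. It gave 14 to 18 members past the ratio in luminal cells, out of 32 or 33 tested. In basal cells it gave 4 to 5, with Cldn1 and Pard3 among them each time. For the wider list it gave 7 to 12 genes past the ratio in basal cells, out of 68 to 70 tested, against 6 of 68 with all libraries. No filter gave 6 of 38 members past the ratio in basal cells, and rescaling to nuclear protein-coding genes gave 1 of 32, without Pard3. The shares of all tested genes past the ratio under these settings were not counted. Whether fewer members than other genes favoured basal cells there is therefore not known. Under the nuclear rescaling the median log2 fold change over the tested genes was 0.21 in place of -0.10, and the changes of members are best read relative to it.

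Signs turned for 7 of the 32 members, none of them called. Leaving out 1 library at a time moved the log2 fold change of Cldn11 from -0.77 (without basal replicate 1) to 2.14, Cldn12 from -2.20 to 0.058 (without luminal replicate 3), Ocln from -0.094 (without basal replicate 1) to 1.21 and Scrib from -0.26 (without luminal replicate 3) to 0.60. It moved Pard6a from -0.86 to 1.37 (-0.61 without basal replicate 1), Mpp5 from -0.35 to 0.36 (-0.25 without luminal replicate 2) and Dlg1 from -0.27 to 0.23 (0.033 without basal replicate 1). Dlg1 was at 0.021 after median-ratio and 0.29 after nuclear rescaling, at 0.012 with edgeR and 0.030 with DESeq2, where Mpp5 was at -0.027 and -0.0056. With 1 library left out, 2 of the 8 pair ratios and the Cldn4 share turned sign. The luminal minus basal difference ran from -0.81 to 0.45 for F11r over Jam3, from -1.17 to 1.11 for Pard6b over Pard6a, and from -2.79 to 10.7 percentage points for the Cldn4 share. With 643267 reads in luminal replicate 2, genes under 3 reads there cannot be told from absent ones.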
